A study of Mus musculus with 18 samples.

Results

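Stromal and mature luminal (ML) cells of the mouse mammary gland were compared across all genes measured on Illumina whole-genome arrays. All samples whose label gives the cell subpopulation as stroma formed 1 group (3 arrays, from mouse pools 1 to 3), and all samples labelled ML formed the other (5 arrays, from pools 1 to 5), which makes 8 of the 18 arrays of the series. The other 10 arrays hold luminal progenitor (LP) and mammary stem cell-enriched (MS) cells and are not compared here. They did enter the fit, the filter on background, the choice of each gene's probe and the adjustment of p-values. Both groups were taken from female mice of the inbred strain FVB/N with no treatment, and the labels give no age. Each pool joined the glands of several mice, so 1 array stands for a pool and not for a single animal. Cells had been depleted of CD31+ endothelial, CD45+ white blood and TER119+ red blood cells, then sorted as CD29lo CD24- (stroma) or as CD29lo CD24+ CD61- (ML). The stromal gate is defined by what the cells lack, so any lineage-depleted cell without CD24 can enter it. No stromal sample was hybridized in the second batch, which holds ML pools 4 and 5.

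The mammary gland is a branched tree of epithelial ducts set in a fat pad. Mature luminal cells line the ducts, carry many of the receptors for ovarian hormones and are held together by tight junctions at their apical side. The stroma around them consists mainly of fibroblasts, which lay down collagen and other matrix proteins, remodel them with proteases, and send growth factors to the epithelium. Epithelial and mesenchymal cells keep apart largely through transcription factors: the Zeb, Snail and Twist families hold epithelial genes down in mesenchymal cells, whereas Foxa1, Gata3 and the Grainyhead and Esrp families act in luminal and other epithelia.

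Values below are log2 intensities of the deposited table, which span 4.44 to 15.09 over all arrays, and a difference of 1 on this scale is a 2-fold change. Background was read on each array from genes of olfactory and vomeronasal receptors, which are not expected in these cells, and lay between 5.10 and 5.23 on the 8 arrays. A probe was tested where it exceeded that level on at least 1 of the 18 arrays, which left 35590 probes and 16324 named genes, each gene read by its brightest probe. Differences are stroma minus ML with the standard error of the limma fit, and a gene was called at a false discovery rate of 0.05 with at least a 1.5-fold change. Arrays of 1 pool shared deviations (correlation 0.26), and the pool was a random block in the fit. Between the stromal and ML arrays of a pool, the 500 largest probe differences had a root mean square of 5.91 ± 0.16 (SD, n = 3 pools), compared with 1.22 to 1.67 between stromal arrays and 1.54 to 2.48 between ML arrays of 1 batch. ML arrays of different batches lay 2.24 to 3.10 apart.

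The sort labels were first set against the genes that define them. Cd24a, which encodes the antigen that separates the 2 gates, had 5.04, 4.999 and 5.43 in stroma, against 8.91, 9.05, 8.96, 7.57 and 8.21 in ML, a difference of -3.73 ± 0.22 (adjusted p = 1.23e-10). Only stromal array 3 was above background for it. The fibroblast markers Pdgfra, Pdgfrb, Col1a1, Col1a2, Col3a1, Lum, Thy1, Vim and Fn1 were all called higher in stroma, by 5.25 to 7.48 on the log2 scale. Their linear levels on single ML arrays were 0.163% (Fn1) to 4.55% (Vim) of the stromal mean. Epithelial markers behaved the other way: Krt8, Krt18, Krt19, Epcam, Cdh1, Pgr and Foxa1 were called lower in stroma, with single stromal arrays at 1.26% (Foxa1) to 18.4% (Cdh1) of the ML mean. Of the 19 genes in the full fibroblast and mesenchymal list 18 were higher and none lower. The brightest probe of the fibroblast marker Dcn and the luminal marker Esr1 did not follow their lists and are described below. In sorted bulk samples, fewer cells of a type and less RNA per cell cannot be told apart.

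Among markers of cells that neither label names, most leukocyte and endothelial genes were not called. The called shares were 16.7% and 17.6%, against 38.3% of all genes, and a gene that is not called is not thereby absent. Ptprc (CD45) was below background on all 3 stromal arrays and on 4 of 5 ML arrays, and 20 of 24 leukocyte markers were not called. Cd3e and Cd79b were called higher in stroma and Ly6d and Cd14 lower, and the median difference of the list was -0.03. Its summed level, in which bright genes weigh most, was 5969 to 7090 units in stroma and 13486 to 26148 units in ML. The sum therefore does not give the number of leukocytes. Cd3e, a subunit of the T cell receptor complex, had 9.34, 8.98 and 8.19 on the stromal arrays, against 5.11, 5.74, 5.04, 5.98 and 5.38 on the ML arrays, whereas the complex's other subunits Cd3d and Cd3g differed by -0.02 and -0.15 and were not called. Of 17 endothelial markers, Eng and Tek were called higher in stroma and Prox1 lower, with the call for Eng lost without stromal array 1 or 2 (1.35 and 1.29), and the defining genes Pecam1, Cdh5, Kdr and Emcn differed by 0.16 to 1.02 with no call. In a fit on the stromal and ML arrays alone, Pecam1 (1.02, adjusted p = 0.0159), Cdh5 (0.85, adjusted p = 0.0156) and Emcn (0.90, adjusted p = 0.0304) were called higher, and in the paired arrays of pools 1 to 3 with the pool as a fixed block Cdh5 was (0.83, adjusted p = 0.0425). Pecam1 (CD31) had 9.67, 9.69 and 8.21 in stroma, against 8.72, 8.08, 8.43, 8.63 and 7.97 in ML, so stromal array 3 fell among the ML arrays, and without that array Pecam1 was called (1.49, adjusted p = 0.0487). Summed over the list, linear endothelial levels were 11015 to 18062 intensity units in stroma and 5698 to 9849 in ML. The part of such cells in the differences below was not tested.

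Skeletal muscle transcripts were low in every stromal array and uneven in ML. Acta1, skeletal actin, had 5.61, 5.22 and 5.80 on the stromal arrays, against 9.31, 6.997, 11.86, 12.80 and 9.24 on the ML arrays, highest on ML arrays 3 and 4. Myl1, Mylpf and Tnni2, which encode parts of the fast-twitch contractile apparatus, were likewise highest on ML array 4, at 12.82, 10.72 and 11.09, and lowest of the ML arrays on ML array 2, at 7.15, 7.14 and 6.37. The summed level of the 11 muscle genes was 749.5 to 774 units in stroma and 735 to 20063 units in ML, and the muscle regulator Myod1 was below background on all 8 arrays. Of the 11 genes 5 were called lower in stroma, led by Acta1 (-4.02), Myl1 (-3.06) and Mylpf (-2.74), and 2 higher, Myh4 (1.30) and Myog (0.73). Myh4 was not called without ML array 1, 2, 4 or 5, without stromal array 2 or 3 (0.76 to 1.29), without the pool block (1.31, adjusted p = 0.0799) or in the paired arrays of pools 1 to 3 with the pool as a fixed block (1.37, adjusted p = 0.101), and Myog was not called without ML array 2 (0.54) or stromal array 2 (0.58). Of 8 erythroid genes 2 were called (25.0%, against 38.3% of all genes), both lower in stroma. They were Alas2 (-1.11) and the alpha globin gene Hba-a1, with 10.27, 10.37 and 10.58 in stroma, against 11.57, 12.87, 12.80, 12.20 and 12.56 in ML. Pericyte markers gave 5 rises and 1 fall of 10, among the rises the channel genes Abcc9 (3.37) and Kcnj8 (2.88), while Rgs5 was not called (1.00) except in the paired arrays with the fixed block (0.91, adjusted p = 0.0213) and in the stromal and ML arrays alone (0.94, adjusted p = 0.00565). The summed pericyte level was 5389.6 to 5671 units in stroma and 2508 to 5290.5 units in ML. Of 7 Schwann cell and nerve markers, Ngfr, Egr2 and S100b were higher and Sox10 (-2.38) and Erbb3 (-1.51) lower in stroma, with a summed level of 12597 to 15923 units in stroma and 4973 to 10179 units in ML.

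Across the 16324 genes, 2701 (16.5%) were called higher and 3547 (21.7%) lower in stroma, 38.3% in all. At the level of probes 5137 of 35590 (14.4%) were higher and 6633 (18.6%) lower, together 33.1%. The largest changes were mostly rises: 429 genes were over 16-fold higher and 156 over 16-fold lower, and beyond 64-fold there were 104 rises and 2 falls. Smaller changes leaned the other way, so that 43.2% of all called genes were higher in stroma. That share became 54.8% (3251 genes higher, 2685 lower) when cyclic loess normalization was added, so the balance of small rises and falls depended on the scaling. Among called genes, 6191 of 6248 (99.1%) had the same sign in all 3 pools in which stroma and ML were sorted together, compared with 65.6% of all genes. The calls were made from these same arrays, so a high share follows from the selection and is not separate support. The 3 stromal arrays lay wholly above or below the 5 ML arrays for 5533 of the called genes, for 42.1% of all genes and for 35.3% of all probes. Within the first hybridization batch alone, 2693 genes were higher and 3494 lower, of which 5947 calls were shared with those above.

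**Figure D1:**
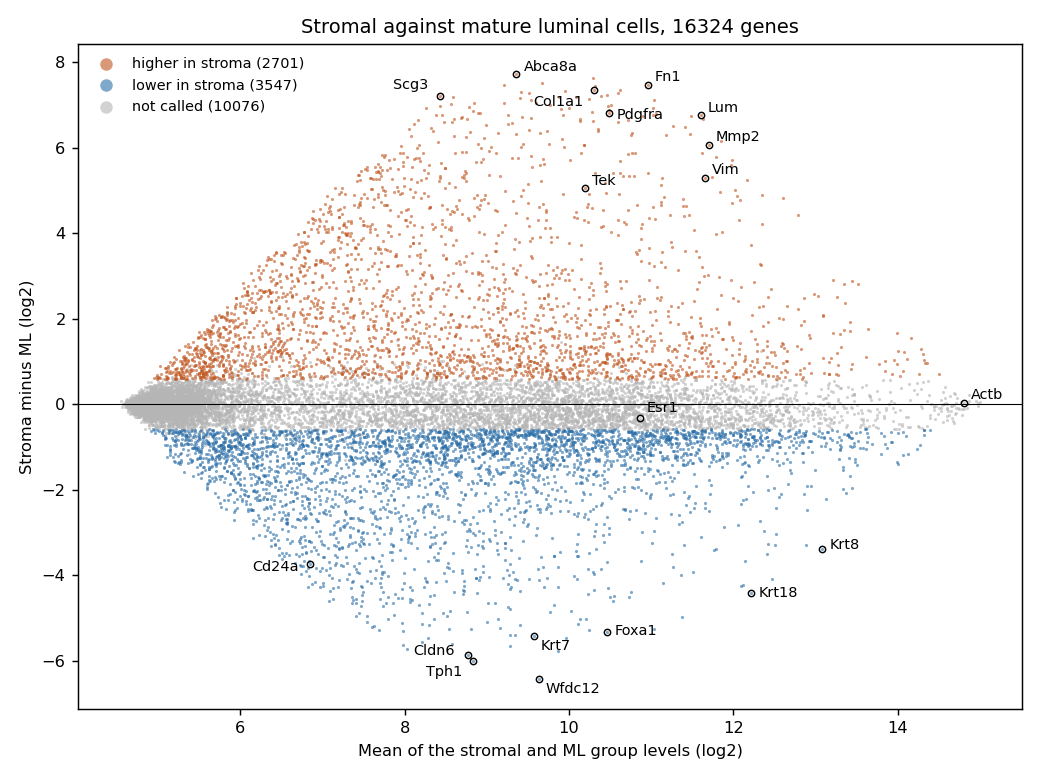
Difference between stroma and ML (log2, vertical axis) against the mean of the 2 group levels (log2, horizontal axis) for each of 16324 genes, coloured by call. The 2701 rises reach further from 0 than the 3547 falls, and Esr1 and Actb lie near 0 although both are well above background.

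Genes with the 15 largest rises were mostly those of secreted and matrix proteins. Abca8a, a lipid transporter of the ABC family, had 13.27, 13.14 and 13.49 on the stromal arrays, against 6.09, 5.32, 5.54, 5.34 and 4.78 on the ML arrays (difference 7.72 ± 0.33, adjusted p = 2.27e-12). Fn1, which encodes fibronectin, had 14.84, 14.81 and 14.64 in stroma, against 7.43, 7.64, 7.19, 8.01 and 5.50 in ML (difference 7.48 ± 0.39). Col1a1, the main chain of type I collagen, had 13.77, 13.86 and 14.05 on the stromal arrays, against 6.71, 6.18, 6.81, 8.70 and 5.18 on the ML arrays (difference 7.36 ± 0.45). In each of these the lowest stromal array stood more than 5 log2 units above the highest ML array. The others were Inmt, an N-methyltransferase (7.63 ± 0.45), Cpxm1, a carboxypeptidase-like protein (7.51 ± 0.28), Adam23 (7.46 ± 0.29), the microfibril protein Mfap5 (7.44 ± 0.35), Igfbp6 (7.34 ± 0.27), the collagen-binding integrin Itga11 (7.32 ± 0.32), Col6a2 (7.31 ± 0.35), the phospholipase Pla1a (7.29 ± 0.35), the dipeptidase Dpep1 (7.28 ± 0.34), the transcription factor Osr2 (7.24 ± 0.35) and the protease Mmp3, stromelysin (7.22 ± 0.38). Scg3, a secretogranin, had 12.08, 11.95 and 11.90 in stroma, against 4.74, 4.89, 4.78, 5.06 and 4.90 in ML. No ML array was above background for it, and its level in stroma was at least 113.3-fold higher (adjusted p = 5.03e-13).

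Stromal genes were most often brightest, among the ML arrays, on 1 array. Of the 429 genes over 16-fold higher in stroma, 263 (61.3%) had their highest ML value on ML array 4, where their median level was 6.54, compared with 5.74 to 5.93 on the other 4 ML arrays, with ML array 5 the lowest. Col1a1 was 8.70 there and 5.18 on ML array 5. ML array 4 belonged to the second batch, as did ML array 5, and had the lowest quality weight of the 5 ML arrays (0.56). Without it 2708 genes were called higher and 3540 lower. In the other direction, luminal genes over 16-fold lower in stroma had a median of 5.54 on stromal array 3, and of 6.27 and 6.08 on stromal arrays 1 and 2. Krt18 was 8.63 on stromal array 3 and 10.77 and 10.30 on the other 2.

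Falls of the largest size, chosen by the same rule of no overlap, included hormone-responsive and secreted luminal products. Wfdc12, a small protease inhibitor of the whey acidic protein family, had 5.46, 6.66 and 7.05 on the stromal arrays, against 12.02, 12.48, 13.94, 12.29 and 13.62 on the ML arrays (difference -6.42 ± 0.50, adjusted p = 6.49e-09). Tph1, which makes the serotonin precursor, had 5.96, 5.996 and 5.38 in stroma, against 12.22, 11.55, 11.95, 11.08 and 12.58 in ML (difference -6.02 ± 0.28). The tight junction gene Cldn6 had 6.13, 5.95 and 5.36 on the stromal arrays, against 11.88, 11.80, 11.88, 10.87 and 12.17 on the ML arrays (difference -5.88 ± 0.31). For these 3 genes the stromal values lay within 2 log2 units of background. The chemokine gene Cxcl15 (-5.79 ± 0.37), Cyp3a57 of the cytochrome P450 family (-5.72 ± 0.42), the membrane-protrusion gene Prom2 (-5.65 ± 0.21), the orphan nuclear receptor Esrrb (-5.63 ± 0.33), Gipc2 (-5.62 ± 0.28), the surfactant protein gene Sftpd (-5.57 ± 0.44), the iodide transporter Slc5a5 (-5.47 ± 0.40), the simple keratin Krt7 (-5.42 ± 0.26), Slc35f3 (-5.40 ± 0.28), Capsl (-5.39 ± 0.30) and the pioneer factor Foxa1 (-5.33 ± 0.37) followed. Ido1, which degrades tryptophan, also belonged here, but it varied among pools: it had 5.995, 4.69 and 5.73 in stroma, against 11.75, 8.62, 12.36, 9.76 and 12.99 in ML (difference -5.47 ± 0.59).

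**Figure D2:**
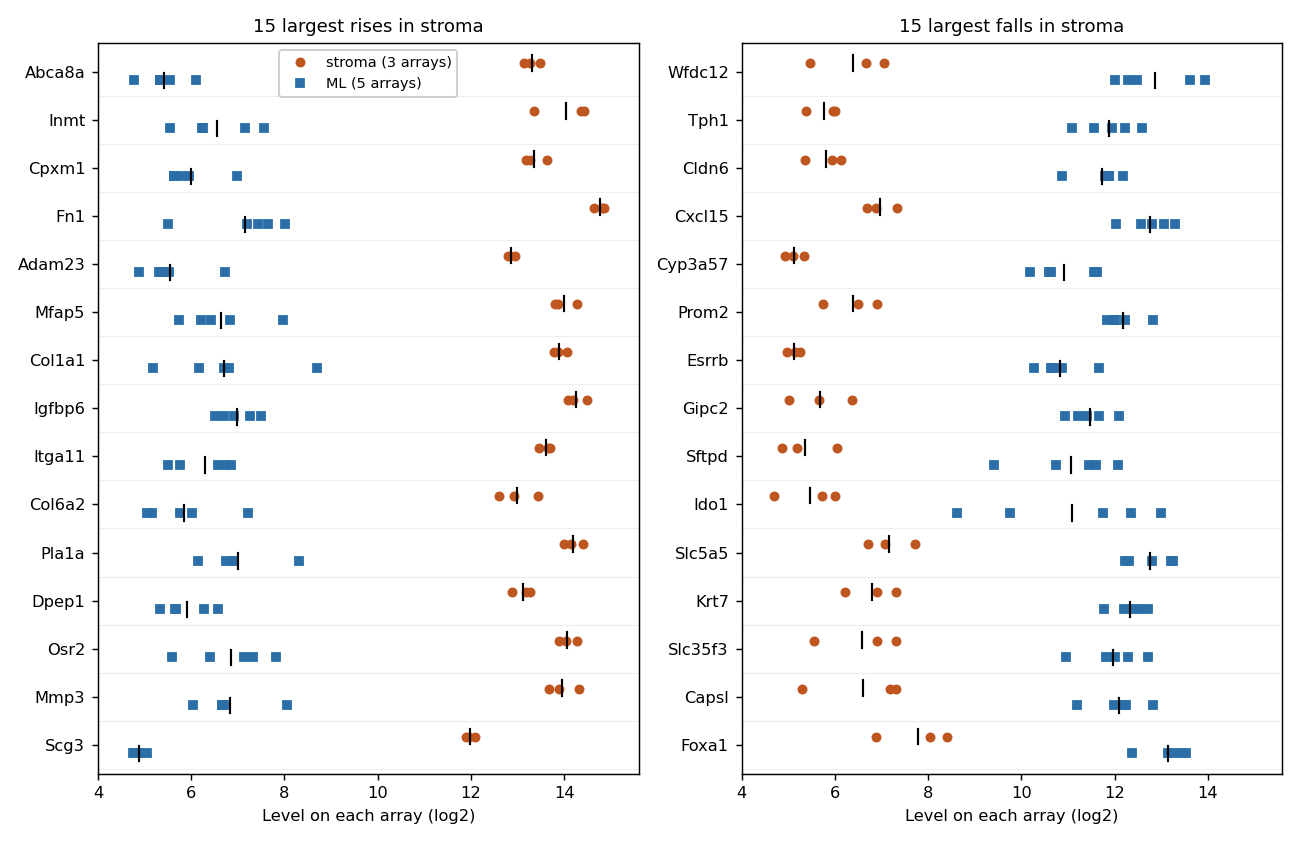
Level on each array (log2, horizontal axis) of the 15 genes with the largest rises (left) and falls (right) in stroma, with 3 stromal arrays as circles above the 5 ML arrays as squares and the group mean as a vertical line. Only called genes with no overlap between the groups were eligible, and Col1a1 in ML runs from 5.18 to 8.70.

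Genes of the fibrous matrix rose almost as a block. Of 11 fibrillar collagens and their partners, 9 were higher in stroma and none lower, with a median difference of 5.30, compared with -0.06 over all genes. Col1a2, the second chain of type I collagen, had 12.65, 12.57 and 12.89 on the stromal arrays, against 5.89, 5.81, 5.98, 5.72 and 5.66 on the ML arrays and Col14a1, Col5a1 and Col5a2 rose by 6.69, 6.51 and 5.89. Col3a1 rose by 5.30 ± 0.39, with ML values between 5.86 and 9.56. Col11a1 (-0.29) and Col24a1 (0.33) were not called. The elastic fibre and adhesive glycoproteins gave 26 rises of 29 genes and no fall (median 5.35, or 5.19 with genes below background in ML set to their bound). After Fn1 and Mfap5 the largest were Abi3bp (7.18), Emilin2 (7.16), tenascin X, Tnxb (7.11), and Mfap4 (7.06). Small leucine-rich proteoglycans, which bind collagen fibrils, rose in 9 of 10 cases (median 3.62, 3.49 with bounds), led by Ogn (6.77), Lum (6.76), Omd (5.54) and Bgn (4.77).

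Decorin depended on the probe. The brightest Dcn probe had 14.21, 14.75 and 14.67 in stroma, against 14.32, 13.95, 14.25, 13.37 and 13.75 in ML and was not called (0.48 ± 0.18, adjusted p = 0.0521). Without ML array 1 or without stromal array 1 it was called, at 0.62 (adjusted p = 0.0231) and 0.65 (adjusted p = 0.0242). It was also called after cyclic loess (0.78, adjusted p = 0.00239), and so was the mean of the Dcn probes (1.93, adjusted p = 4.51e-09). Its 3 other probes were all called higher in stroma, by 1.77 ± 0.24, 2.03 ± 0.17 and 3.48 ± 0.28. The probe with the largest difference had 12.36, 12.22 and 12.41 on the stromal arrays, against 8.996, 9.13, 8.68, 7.43 and 8.999 on the ML arrays. On the brightest probe all 8 arrays were near the top of the measured range, and linear levels on single ML arrays were 43.7% to 84.8% of the stromal mean.

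Sheet-forming and basement membrane components divided between the 2 compartments. Among 13 network and beaded-filament collagens 9 were higher and 2 lower in stroma (median 3.55, 3.05 with bounds). Col6a2, Col15a1 and Col6a1 rose by 7.31, 6.71 and 6.15, and the basement membrane chains Col4a1 and Col4a2 by 4.31 and 4.43. Col8a1, a short-chain collagen, ran the other way: it had 9.38, 9.24 and 8.53 on the stromal arrays, against 12.29, 11.67, 12.35, 11.12 and 11.54 on the ML arrays (difference -2.79 ± 0.28). Col4a6 was also lower (-1.38). Laminins, the other large proteins of the basement membrane, were split by chain, with 6 of 9 higher and 2 lower. Lama2 had 12.70, 12.44 and 12.41 in stroma, against 6.31, 6.53, 6.02, 6.94 and 5.18 in ML (difference 6.31 ± 0.32). Lama5 had 7.17, 7.17 and 5.70 on the stromal arrays, against 11.90, 11.24, 11.60, 11.15 and 11.69 on the ML arrays (difference -4.65 ± 0.23). Stroma was thus high for the alpha chain Lama2 (with Lamc3 at 5.28 and Lamb1 at 4.15), and ML for the alpha chain Lama5, with Lamb3 also lower in stroma (-1.05). In the paired arrays of pools 1 to 3 with the pool as a fixed block Lamb3 was not called (-0.96, adjusted p = 0.0526).

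Enzymes that fold, crosslink and cut the matrix rose with it. Of 18 genes for collagen synthesis and crosslinking, 15 were higher and none lower (median 2.78). Lox, the crosslinking oxidase, had 13.25, 12.94 and 13.63 in stroma, against 6.94, 5.90, 6.48, 7.63 and 5.94 in ML (difference 6.77 ± 0.36), and Pcolce2 and Pcolce, enhancers of procollagen processing, rose by 7.18 and 5.89. Plod2, which hydroxylates collagen lysines, rose by 4.98, whereas P4hb (0.29), P3h2 (-0.42) and Plod3 (0.43) were not called. Without stromal array 2, P3h2 was called lower (-0.89, adjusted p = 0.0428), and after cyclic loess Plod3 was called higher (0.71). Matrix proteases and their inhibitors gave 20 rises of 27 and no fall (median 3.42). Besides Mmp3 these were led by cathepsin K, Ctsk (6.79), Dpp4 (6.63), Mmp23 (6.54), the fibroblast activation protein Fap (6.23) and gelatinase A, Mmp2 (6.06). Mmp9, Mmp10 and Mmp13 differed by 0.28, 0.02 and 0.02 and were not called.

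**Figure D3:**
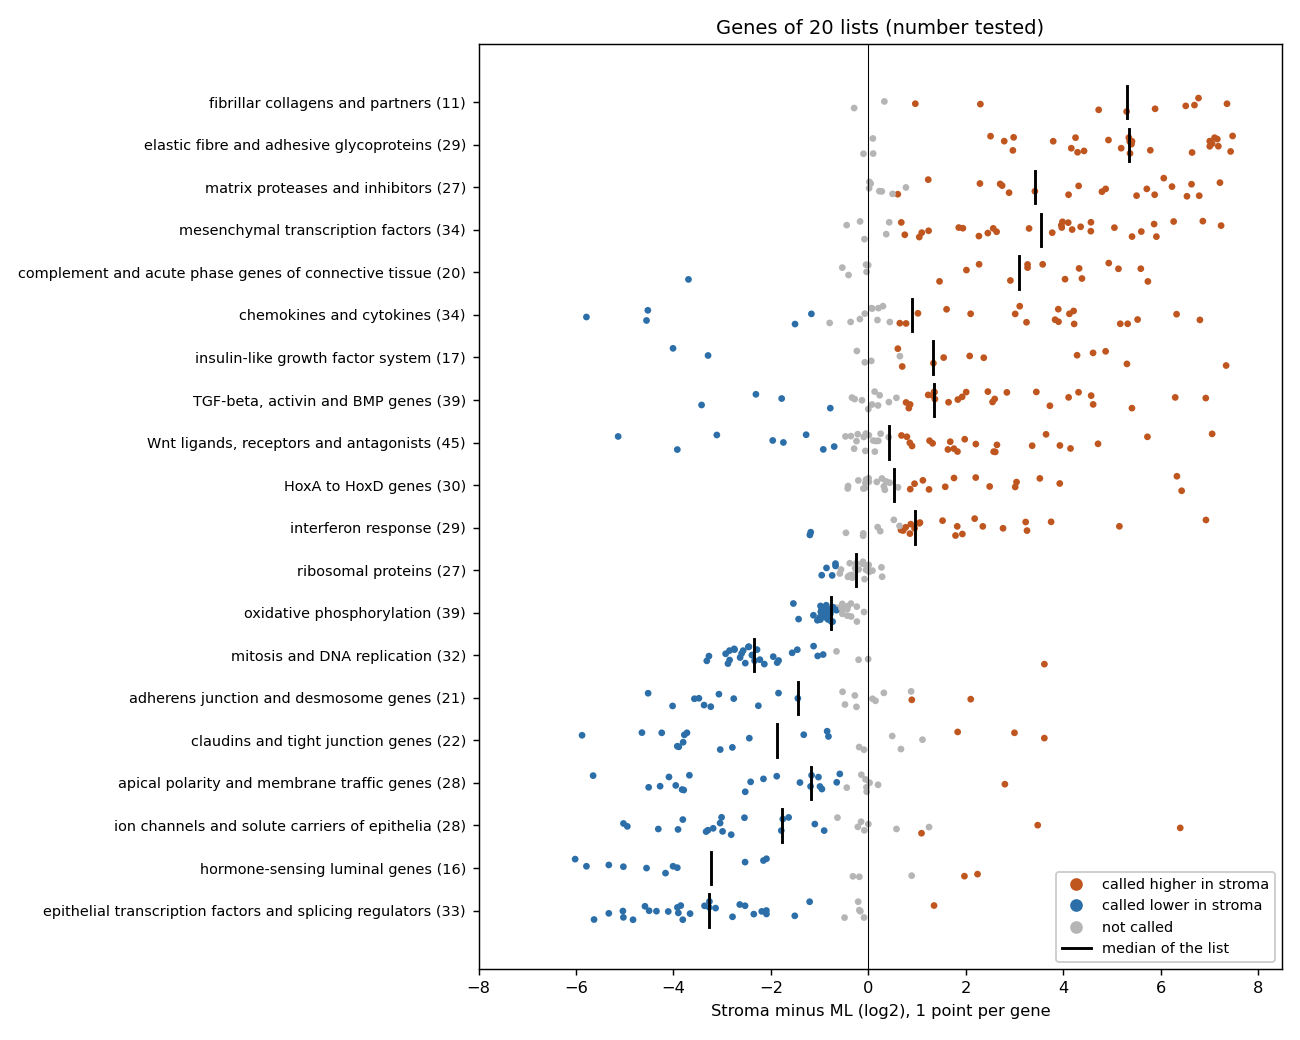
Difference between stroma and ML (log2, horizontal axis) for the genes of 20 lists, 1 point per gene, with the list median as a black line. Matrix and mesenchymal lists lie to the right with medians up to 5.35, and the epithelial factor and hormone-sensing lists to the left with medians of -3.26 and -3.22.

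Transcription factors of mesenchyme formed a broad group of rises: 29 of 34 were called higher and none lower (median 3.54, 3.41 with bounds). Osr2 and Ebf2 rose by 7.24 and 6.87. Twist2 had 11.09, 11.16 and 11.27 on the stromal arrays, against 4.69, 4.86, 5.27, 4.91 and 5.12 on the ML arrays (difference 6.27 ± 0.23), with 1 of 5 ML arrays above background. The repressor Zeb1 had 11.91, 11.85 and 12.01 in stroma, against 5.67, 6.01, 6.39, 7.07 and 5.54 in ML (difference 5.91 ± 0.32), and Zeb2 had 11.66, 11.27 and 11.37 on the stromal arrays, against 5.82, 6.16, 6.29, 6.21 and 5.85 on the ML arrays (difference 5.41 ± 0.37). No ML array came within 4 log2 units of a stromal array for either repressor. Prrx1 and Gata6 rose by 5.87 and 5.60, and among the Snail family Snai2 by 4.57 and Snai1 by 1.94, with the 7.81 of ML array 5 overlapping stroma for Snai1. Foxc1, Nfib, Scx, Foxf1 and Fli1 were not called, although Foxf1 was without stromal array 2 (0.66, adjusted p = 0.0488). Hox genes, which record the position of a cell along the body, were higher in stroma in 14 of 30 cases and lower in none. This is 46.7% called, against 38.3% of all genes. Hoxc9 had 11.25, 11.18 and 11.23 in stroma, against 4.77, 4.94, 4.74, 5.20 and 4.73 in ML (difference 6.43 ± 0.31, 1 of 5 ML arrays above background). Hoxc6 rose by 6.33, and Hoxa5, Hoxa7, Hoxd8 and Hoxb7 by 3.93, 3.52, 3.04 and 3.02. Only 8 of the 30 Hox genes exceeded background on all 5 ML arrays, compared with 21 on all 3 stromal arrays.

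On the luminal side the corresponding list ran downward: 27 of 33 epithelial transcription factors and splicing regulators were lower in stroma and 1 was higher (median -3.26). Foxa1 had 8.40, 8.05 and 6.89 on the stromal arrays, against 13.54, 13.14, 13.45, 12.37 and 13.26 on the ML arrays. Esrp2, an epithelial splicing regulator, had 5.71, 6.03 and 5.64 in stroma, against 10.78, 10.73, 11.10, 11.39 and 10.64 in ML (difference -5.04 ± 0.16). Gata3 had 8.79, 8.75 and 7.31 on the stromal arrays, against 13.11, 12.90, 13.34, 12.52 and 12.20 on the ML arrays (difference -4.50 ± 0.23). Foxa1 and Gata3 each had their lowest stromal value on stromal array 3. Esrrb, the Cbp-binding coregulators Cited1 (-5.03) and Cited4 (-4.83) and Tfap2a (-4.58) completed the largest falls. Id2, an inhibitor of helix-loop-helix factors that is also known from luminal lineages, was the exception and was higher in stroma (1.35 ± 0.15). Grhl3, Xbp1, Lmo4, Ldb1 and Msx2 were not called.

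Simple keratins and the junctions that seal and anchor epithelial sheets were lower in stroma. Krt8 had 11.85, 11.80 and 10.20 in stroma, against 14.93, 14.87, 14.89, 14.89 and 14.85 in ML (difference -3.39 ± 0.24). All 5 ML values lay close to the highest value on any array (15.09), where differences may be compressed. Krt18 (-4.43) and Krt19 (-4.25) were lower too, and Krt23 and Krt20 were higher in stroma by 1.33 and 0.88. The call for Krt23 was lost without ML array 2 (0.92, adjusted p = 0.0908). Of 11 basal and stratified keratins 3 were lower and 1 was higher in stroma, led by Krt6b (-2.80) and Krt10 (1.19). This is 36.4% called, against 38.3% of all genes. The defining basal pair Krt5 and Krt14 differed by 0.35 ± 0.45 and 0.32 ± 0.47 and were not called. Krt14 had 12.74, 12.68 and 10.06 on the stromal arrays, against 11.89, 11.84, 11.37, 13.76 and 11.75 on the ML arrays, so that stromal array 3 lay below every ML array and the other 2 stromal arrays above 4 of them. The same pair of stromal arrays was high for the smooth muscle myosin gene Myh11, with 9.69, 9.47 and 7.13 in stroma, against 8.13, 7.54, 7.503, 9.25 and 6.70 in ML (difference 1.34, not called). Among 14 contractile genes of smooth muscle and myoepithelium, 6 were called higher in stroma and none lower (42.9% called, against 38.3% of all genes). Myl9 rose by 2.57 and Acta2 by 1.08. Acta2 was not called without stromal array 1 (0.67, adjusted p = 0.362) or 2 (0.56, adjusted p = 0.455), without ML array 2, 3 or 5 (0.95 to 1.07), without the pool block (1.10, adjusted p = 0.0613) or with the pool as a fixed block (0.99, adjusted p = 0.104), whereas Myh11 was called without stromal array 3 (1.87, adjusted p = 0.0189) and in the stromal and ML arrays alone (1.36, adjusted p = 0.0431). The summed level of the list was 19437 to 34624 units in stroma and 12593 to 29103 units in ML.

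Of 22 claudin and tight junction genes, 14 were lower and 3 higher in stroma (median -1.88, -1.46 with bounds). Cldn4 had 11.11, 10.40 and 7.87 on the stromal arrays, against 14.78, 14.32, 14.01, 14.35 and 14.73 on the ML arrays (difference -4.24 ± 0.48). Marveld3 (-4.65), F11r (-3.92), Tjp3 (-3.89) and Cldn3 (-3.80) were lower as well. Ocln, occludin, had 4.89, 4.75 and 4.77 in stroma, against 8.59, 8.45, 8.51, 8.62 and 9.18 in ML. It was at least 11.6-fold lower in stroma, where no array exceeded background (adjusted p = 4.42e-10). The 3 rises were Jam2 (3.61), Jam3 (3.00) and Cldn15 (1.83), the first pair being adhesion molecules also known from endothelium and fibroblasts. Adherens junction and desmosome genes gave 11 falls and 2 rises of 21. Epcam had 5.54, 5.69 and 5.61 on the stromal arrays, against 9.71, 9.61, 8.87, 7.30 and 8.16 on the ML arrays (difference -3.57 ± 0.29). Evpl (-4.52), Dsg2 (-4.02), Nectin2 (-3.48), Pkp2 (-3.37), Pkp3 (-3.23) and Cdh1, E-cadherin (-3.07), were lower. Cdh11, a cadherin of mesenchymal cells, rose by 2.10 ± 0.17, whereas Cdh2, N-cadherin, differed by 0.32 ± 0.15 and was not called. The catenins Ctnnb1, Ctnna1 and Ctnnd1, which link cadherins to actin, were not called either (-0.28, -0.53 and -0.48). Apical polarity and membrane traffic genes fell in 20 of 28 cases and rose in 1. Rab25, a small GTPase of apical recycling, had 8.92, 8.86 and 7.10 in stroma, against 13.14, 12.96, 12.87, 13.36 and 13.51 in ML (difference -4.51 ± 0.29). The only rise was Sytl2 (2.80 ± 0.37).

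Promoters of the luminal genes were then read, because the Zeb and Snail repressors described above bind an E-box with the letters CAGGTG. RefSeq promoters of the GRCm38.p6 build, each with 250 bases before and 50 after the start of a gene, matched 13040 of the 16324 genes, with 1 promoter per gene. The hexamer CAGGTG, read on both strands (CACCTG on the other), occurred in 19.0% of these. Among genes over 16-fold lower in stroma it occurred in 53 of 112 promoters (47.3%). Among those over 16-fold higher it occurred in 36 of 306 (11.8%). The share followed the size of the fall: it was 17.03% for genes lower by 1.5- to 2-fold, 23.4% for 2- to 4-fold and 30.5% for 4- to 16-fold, and in each bin of rises between 1.5- and 16-fold it was 14.3% to 16.4%. Median GC content was 60.2% in the group with the largest falls and 58.7% over all promoters. A match is a stretch of letters, and no binding was measured here. Promoters of 5 luminal genes described here, chosen because they hold a match, are printed with each match in capitals, 5′ to 3′ along the gene, with the gene's start after base 250.

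Cldn6 promoter: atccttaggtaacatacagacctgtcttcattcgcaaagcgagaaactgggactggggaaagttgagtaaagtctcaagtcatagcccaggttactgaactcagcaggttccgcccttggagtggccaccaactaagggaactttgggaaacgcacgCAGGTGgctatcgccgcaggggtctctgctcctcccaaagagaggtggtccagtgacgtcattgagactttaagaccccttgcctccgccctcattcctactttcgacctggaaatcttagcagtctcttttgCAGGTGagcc
Cldn4 promoter: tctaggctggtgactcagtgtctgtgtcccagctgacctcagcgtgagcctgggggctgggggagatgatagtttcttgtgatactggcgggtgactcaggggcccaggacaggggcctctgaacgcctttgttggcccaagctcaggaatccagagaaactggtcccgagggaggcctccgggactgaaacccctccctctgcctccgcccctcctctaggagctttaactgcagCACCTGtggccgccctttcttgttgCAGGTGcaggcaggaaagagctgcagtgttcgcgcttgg
Rab25 promoter: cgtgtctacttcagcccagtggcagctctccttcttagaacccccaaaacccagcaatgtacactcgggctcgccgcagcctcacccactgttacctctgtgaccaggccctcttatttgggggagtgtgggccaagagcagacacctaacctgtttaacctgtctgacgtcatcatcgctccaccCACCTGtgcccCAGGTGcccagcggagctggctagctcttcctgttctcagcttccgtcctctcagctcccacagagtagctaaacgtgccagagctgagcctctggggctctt
Krt7 promoter: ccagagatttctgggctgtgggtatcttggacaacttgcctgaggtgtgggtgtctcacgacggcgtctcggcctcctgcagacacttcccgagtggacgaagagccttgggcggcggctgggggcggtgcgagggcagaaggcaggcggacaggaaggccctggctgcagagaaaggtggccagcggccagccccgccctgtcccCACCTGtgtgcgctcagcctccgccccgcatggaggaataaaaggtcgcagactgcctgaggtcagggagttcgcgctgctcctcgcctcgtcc
Epcam promoter: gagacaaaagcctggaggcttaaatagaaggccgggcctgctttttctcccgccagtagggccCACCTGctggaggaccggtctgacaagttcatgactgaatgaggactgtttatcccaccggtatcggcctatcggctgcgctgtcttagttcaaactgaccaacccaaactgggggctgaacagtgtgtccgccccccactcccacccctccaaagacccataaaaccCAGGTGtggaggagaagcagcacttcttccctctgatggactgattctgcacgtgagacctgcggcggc

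They lie at chr17:23679115-23679414 on the plus strand (Cldn6), chr5:134946885-134947184 on the minus strand (Cldn4), chr3:88548230-88548529 on the minus strand (Rab25), chr15:101412153-101412452 on the plus strand (Krt7) and chr17:87635729-87636028 on the plus strand (Epcam). Cldn6, Cldn4, Rab25 and Epcam each held 2 matches and Krt7 held 1. Those of Cldn4 began 14 bases before and 11 bases after the start, and those of Rab25 began 64 and 53 bases before it. Of the 3 other motifs, each read on both strands, none had so wide a spread of shares. The Grainyhead letters AACCNGTT occurred in 2.68% of promoters of genes over 16-fold lower, 1.63% of those over 16-fold higher and 1.84% of all. The AP-2 letters GCCNNNGGC occurred in 24.1%, 20.3% and 22.3% in the same order, and TATAAA in 13.4%, 12.7% and 10.6%. None of these motifs contains the E-box hexamer, and the same promoter could hold several of them.

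**Figure D4:**
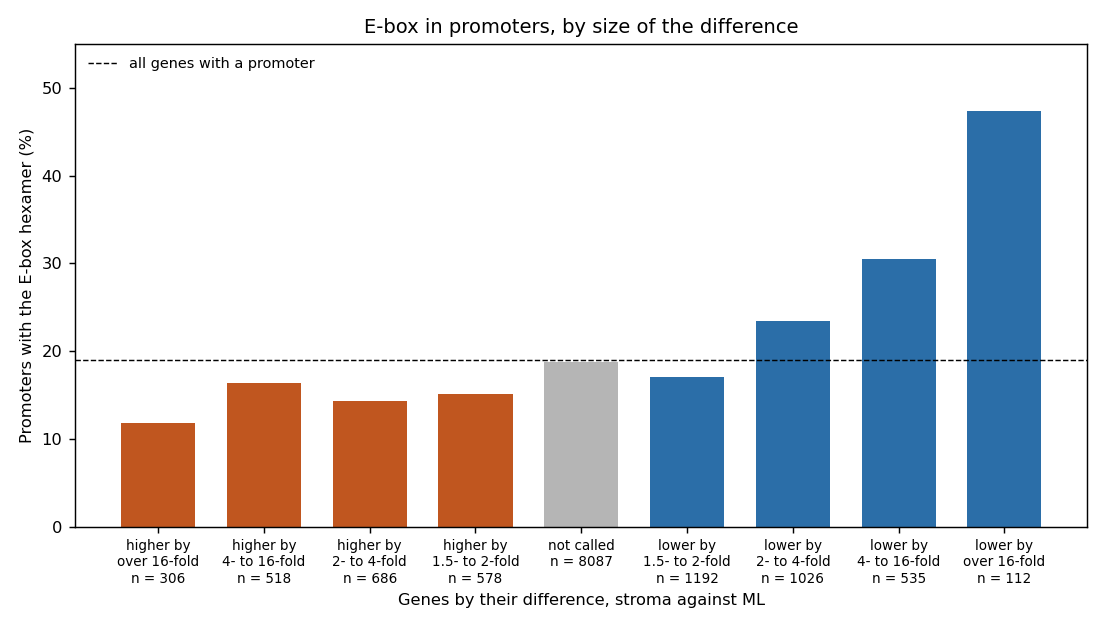
Percent of promoters with the E-box hexamer on either strand (vertical axis) for genes binned by their difference between stroma and ML (horizontal axis, largest rises at the left), with the number of promoters under each bar and all genes as a dashed line. The share is 11.8% for the largest rises and 47.3% for the largest falls.

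Genes of the ligand and receptor pairs were more often called higher than lower in stroma, which alone favours pairs with both higher. Of 80 ligand and receptor pairs from general knowledge with both genes tested, 22 had both genes higher in stroma, 5 both lower, 6 the ligand higher and the receptor lower, and 10 the ligand lower and the receptor higher. Over all genes 16.5% were higher and 21.7% lower. Several genes recur among the pairs, and whether ligand and receptor go together beyond these shares was not tested. Fibroblast growth factors gave a case of stromal ligand and luminal receptor. Fgf10, needed for mammary bud formation, had 11.53, 11.77 and 11.68 on the stromal arrays, against 4.99, 5.51, 5.68, 5.67 and 5.84 on the ML arrays (difference 6.27 ± 0.25), and Fgf7 had 11.12, 11.13 and 10.85 in stroma, against 6.41, 5.46, 5.84, 6.60 and 5.92 in ML (difference 5.17 ± 0.20). Their receptor gene Fgfr2 had 11.15, 11.06 and 10.32 on the stromal arrays, against 14.75, 13.93, 14.25, 13.73 and 14.22 on the ML arrays (difference -3.30 ± 0.17). All 3 stromal arrays lay beyond all 5 ML arrays for Fgf10, Fgf7 and Fgfr2, whereas Fgfr1 was higher in stroma by 1.08. The call for Fgfr1 was lost without array weights (1.07, adjusted p = 0.0696). Of the 19 genes of this family 7 were higher and 5 lower.

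Bone morphogenetic protein genes showed this arrangement in part. Bmp4 and Bmp2 were higher in stroma by 4.57 and 0.86 with no call for their receptor gene Bmpr1a. Bmp7 and Bmp5 rose by 3.45 and 1.23, and Bmpr1b, a type I receptor, had 5.57, 6.04 and 5.41 in stroma, against 8.79, 9.43, 9.46, 8.81 and 9.20 in ML (difference -3.42 ± 0.18). Over the whole TGF-beta, activin and BMP list 25 of 39 genes were higher and 4 lower in stroma. Gdf10 had 13.38, 13.52 and 13.46 on the stromal arrays, against 6.60, 6.96, 6.25, 7.43 and 5.56 on the ML arrays (difference 6.93 ± 0.38), and Fstl1, Tgfbi and Tgfbr3 rose by 6.30, 5.41 and 4.62. Tgfb1 itself ran against its receptor: the ligand had 7.28, 7.25 and 7.94 in stroma, against 8.89, 9.04, 9.66, 9.17 and 9.41 in ML (difference -1.78 ± 0.18), and the receptor gene Tgfbr2 had 14.56, 14.30 and 14.34 on the stromal arrays, against 12.96, 12.13, 12.50, 12.13 and 12.51 on the ML arrays (difference 1.93 ± 0.15). Inhba, a subunit of activin, fell by 2.31 on the log2 scale and the receptor Acvr2a rose by 2.45.

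Of 12 ErbB receptors, ligands and regulators 4 were higher and 5 lower in stroma. Egfr had 13.12, 12.85 and 13.18 in stroma, against 8.83, 8.51, 8.02, 9.66 and 9.45 in ML (difference 4.36 ± 0.19). Betacellulin, Btc, had 5.78, 6.13 and 5.18 on the stromal arrays, against 9.49, 10.01, 9.92, 9.12 and 10.25 on the ML arrays (difference -3.98 ± 0.25). Hbegf was lower (-1.22) with overlapping arrays, and Tgfa, Egf and Nrg1 were not called. The receptors Erbb2 and Erbb3 went the other way from Egfr, at -1.89 and -1.51. The list of PDGF, VEGF and HGF genes gave 15 rises and 1 fall of 23. The fall was Pdgfb (-2.51 ± 0.22), whose receptor gene Pdgfrb rose by 5.25 ± 0.26, while Pdgfa and Pdgfc were not called and Pdgfra rose by 6.81. The neurotrophin gene Bdnf fell by 3.03 ± 0.29 and its receptor Ntrk2 rose by 5.998 ± 0.32. Hgf, the scatter factor, had 9.56, 10.02 and 11.30 in stroma, against 4.64, 4.92, 4.70, 5.20 and 4.88 in ML (difference 5.30 ± 0.34, 1 of 5 ML arrays above background). Its receptor Met did not pass the test (0.30 ± 0.31, adjusted p = 0.547). Tek, the angiopoietin receptor known mainly from endothelium, rose by 5.05 ± 0.46 and Angpt1 by 1.19, a call that was lost without stromal array 2 (0.95, adjusted p = 0.0555).

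Tnfsf11, the RANK ligand induced by progesterone, had 5.76, 6.24 and 5.81 on the stromal arrays, against 9.40, 11.38, 11.48, 9.73 and 9.02 on the ML arrays (difference -4.55 ± 0.39). Its receptor Tnfrsf11a fell with it (-1.87), whereas the soluble decoy receptor Tnfrsf11b had 9.01, 9.07 and 8.97 in stroma, against 4.84, 4.88, 4.54, 4.87 and 4.61 in ML. No ML array was above background for the decoy gene, which was at least 14.6-fold higher in stroma (adjusted p = 1.4e-10). Wnt ligands were divided by member. Wnt2 had 12.37, 12.42 and 12.43 on the stromal arrays, against 5.18, 5.64, 5.43, 5.32 and 4.79 on the ML arrays (difference 7.06 ± 0.25). Wnt4 had 7.25, 7.99 and 6.77 in stroma, against 11.07, 11.87, 11.41, 10.93 and 11.19 in ML (difference -3.92 ± 0.23), and Wnt7b fell by 5.13 ± 0.27. The antagonists Sfrp2, Sfrp1 and Dkk3 were all stromal, with rises of 5.73, 4.71 and 4.15, and the receptors Fzd1 and Fzd2 rose by 3.93 and 3.65, while Fzd6 fell by 3.11. Over the list 22 of 45 genes were higher and 8 lower (median 0.42, 0.30 with bounds).

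**Figure D5:**
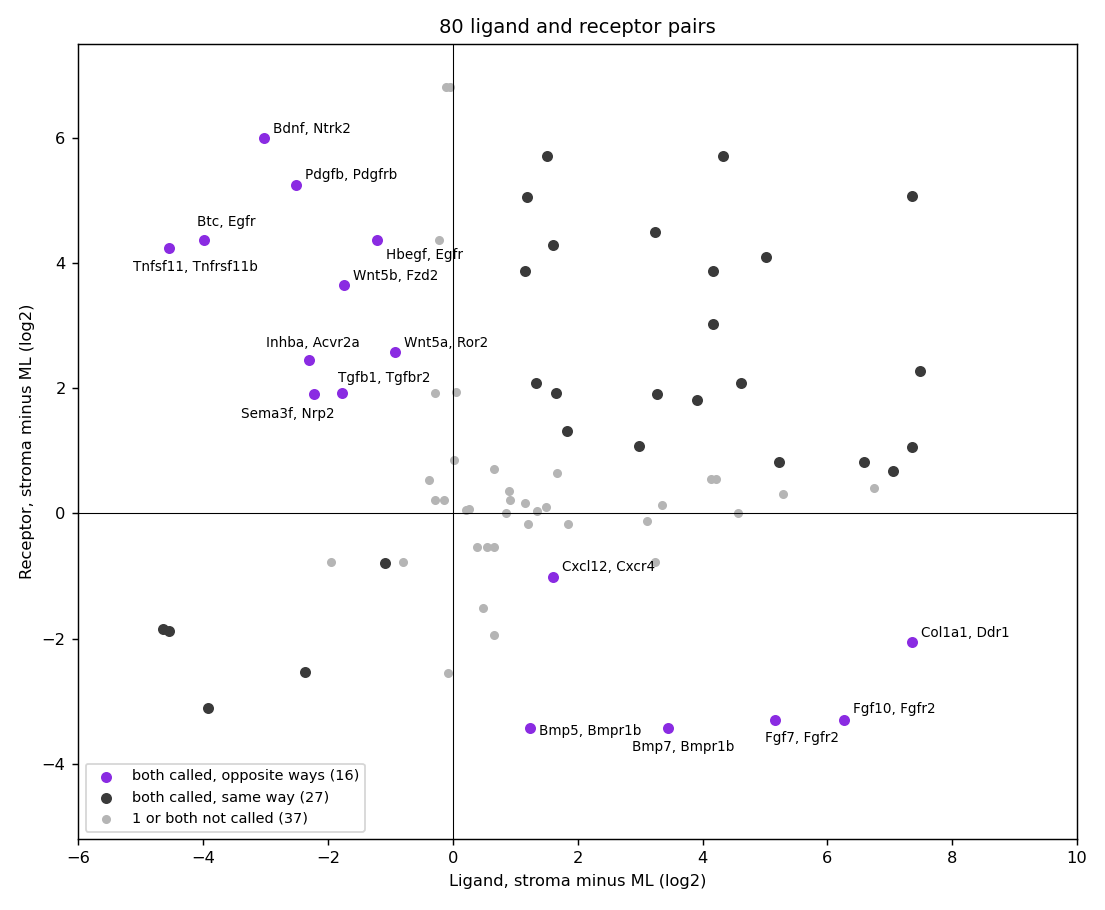
Difference between stroma and ML (log2) of a ligand (horizontal axis) and its receptor (vertical axis) for 80 pairs, with names on the 16 pairs in which both were called in opposite directions. Ligands higher in stroma with receptors lower lie at the lower right, among them Fgf10 with Fgfr2 at 6.27 and -3.30.

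Other signalling families differed in how far they moved. Insulin-like growth factor genes were higher in 11 of 17 cases and lower in 2. Igf1 had 11.004, 11.07 and 11.15 on the stromal arrays, against 6.52, 6.48, 6.17, 7.36 and 6.88 on the ML arrays (difference 4.61 ± 0.32), its receptor Igf1r rose by 2.08, and the binding proteins Igfbp6, Igfbp4, Igfbp3 and Igfbp2 by 7.34, 5.31, 4.87 and 4.29. Stc2, a stanniocalcin, was luminal with 9.64, 9.25 and 9.24 in stroma, against 13.64, 13.31, 13.47, 12.80 and 13.56 in ML (difference -4.01 ± 0.33). Guidance genes gave 20 rises and 8 falls of 39, with Slit3 (6.59), Slit2 (5.22), Epha3 (4.81) and Sema5a (4.31) in stroma and with Epha2 (-2.54), its ligand Efna1 (-2.38) and Sema3f (-2.23) lower. Hedgehog genes rose in 6 of 13 cases with no fall (46.2% called, against 38.3% of all genes). Gli2 had 10.41, 10.46 and 10.50 on the stromal arrays, against 5.49, 5.20, 4.96, 5.36 and 7.29 on the ML arrays (difference 5.03 ± 0.23), but the ligands Shh and Ihh and the pathway targets Gli1 and Ptch1 were not called (-0.29, -0.14, -0.03 and 0.21). Of the 23 Notch pathway genes, 5 were higher and 3 lower (34.8% called, against 38.3% of all genes). Notch1 (-0.54) and Hes1 (-0.56) were among the 15 not called. Notch1 was called lower in the paired arrays of pools 1 to 3 with the pool as a fixed block (-0.61, adjusted p = 0.0223). Hes1 was called lower without ML array 2 or 3 or without stromal array 1 or 2 (-0.75 to -0.70).

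Immune mediators were more often higher than lower in stroma. Of 34 chemokines and cytokines, 19 were higher and 5 lower. Cxcl13, a B cell attractant, had 12.81, 11.94 and 11.89 in stroma, against 5.12, 5.21, 6.05, 6.11 and 5.37 in ML (difference 6.81 ± 0.36). Eotaxin, Ccl11, had 14.55, 14.72 and 14.35 on the stromal arrays, against 8.32, 8.43, 7.67, 8.79 and 8.87 on the ML arrays (difference 6.33 ± 0.28). Ccl2 varied more among the stromal pools, with 12.15, 11.44 and 10.22 in stroma, against 6.24, 5.98, 6.06, 6.52 and 5.78 in ML (difference 5.32 ± 0.30). Tnfsf13b and Ccl7 rose by 5.53 and 5.17. Cxcl12 was higher by 1.61 and its receptor Cxcr4 lower (-1.01), but without stromal array 1 or 2 neither was called (Cxcl12 at 1.24 and 1.19, Cxcr4 at -0.96 and -0.78). Cxcl15, Tnfsf11 and Cxcl17 (-4.53) were lower in stroma. Complement and acute phase genes gave 14 rises and 1 fall of 20, with the protease C1s1 (5.74), its inhibitor Serping1 (5.59), C7 (4.38) and Pros1 (4.33) higher. The fall was haptoglobin, Hp, with 8.60, 9.30 and 7.61 on the stromal arrays, against 12.47, 12.25, 12.39, 11.86 and 13.09 on the ML arrays. The macrophage-derived C1qa, C1qb and C1qc were not called (-0.04, -0.002 and -0.41). Interferon-response genes rose in 20 of 29 cases and fell in 2. Ifi205 had 12.22, 11.80 and 11.22 in stroma, against 4.82, 4.99, 4.93, 4.52 and 4.55 in ML. It was at least 96.7-fold higher in stroma, because no ML array was above background (adjusted p = 1.04e-12). Ifit3, Mx2 and Irf7 rose by 5.15, 3.75 and 3.26. The 2 falls, Psmb9 (-1.20) and Psmb8 (-1.18), encode subunits of the immunoproteasome.

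Fat cell genes were higher, lower or not called without a common direction. Of 19 adipogenic and adipocyte genes 5 were higher and 3 lower (42.1% called, against 38.3% of all genes). The lower ones were the lipase genes Lipe (-2.25) and Pnpla2 (-1.77) and Agpat2 (-1.26). Pparg, the master regulator of adipogenesis, had 10.41, 10.42 and 10.40 on the stromal arrays, against 7.47, 7.43, 7.37, 7.73 and 6.89 on the ML arrays (difference 3.10 ± 0.41), Lpl, lipoprotein lipase, had 14.84, 14.87 and 14.90 in stroma, against 9.48, 9.97, 10.34, 12.40 and 9.500 in ML (difference 4.83 ± 0.33), and Zfp423 and Dlk1 rose by 2.14 and 2.00. Plin1 and Cidec, coats of the lipid droplet, were below background on all 8 arrays. Adipoq, adiponectin, had 6.73, 6.64 and 6.62 on the stromal arrays, against 5.27, 5.72, 5.86, 6.32 and 5.19 on the ML arrays and was not called (1.07 ± 0.45, adjusted p = 0.0845). It was called higher in the paired arrays of pools 1 to 3 with the pool as a fixed block (1.04, adjusted p = 0.00307) and in the stromal and ML arrays alone (1.04, adjusted p = 0.00048). Lep, leptin, was not called (0.26). Among 31 xenobiotic, retinoid and aldehyde enzymes 19 were higher and 8 lower. Akr1c18, which inactivates progesterone, had 12.03, 11.84 and 11.72 in stroma, against 4.69, 5.83, 4.75, 5.11 and 4.84 in ML (difference 6.77 ± 0.34, 1 of 5 ML arrays above background). Aldh1a1, a retinal dehydrogenase used as a stem cell marker, had 10.55, 9.68 and 10.88 on the stromal arrays, against 4.92, 4.77, 5.27, 4.83 and 4.91 on the ML arrays (difference 5.27 ± 0.27, again 1 of 5 ML arrays), and Aox3, Cyp7b1 and Rbp4 rose by 5.27, 4.65 and 4.15. Crabp2, which carries retinoic acid to the nucleus, was lower in stroma (-2.67).

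Hormone-sensing luminal genes were lower in stroma in 11 of 16 cases and higher in 2 (median -3.22, -3.01 with bounds). Pgr, the progesterone receptor, had 4.96, 5.22 and 6.07 in stroma, against 9.43, 9.69, 9.49, 8.62 and 9.21 in ML (difference -4.16 ± 0.18). The oestrogen receptor gene Esr1 was different: it had 10.94, 10.89 and 10.69 on the stromal arrays, against 11.39, 11.31, 11.43, 9.67 and 10.61 on the ML arrays and was not called (-0.32 ± 0.24, adjusted p = 0.379, interval -0.81 to 0.18). Its stromal arrays lay above ML arrays 4 and 5 of the second batch and below ML arrays 1 to 3 of the first. Within the first batch the difference was -0.50 (adjusted p = 0.0618), in the paired arrays of pools 1 to 3 with the pool as a fixed block it was -0.52 (adjusted p = 0.023, under 1.5-fold), and its 2 dimmer probes were not called either (-0.54 and 0.06). Greb1 and Cyp2d22 were higher in stroma by 2.24 and 1.97. Among 18 steroid and polypeptide hormone receptors, 5 were lower and 4 higher. Esrrb, Pgr, Esrrg (-3.50), Vdr (-2.47) and Esrra (-0.97) were lower. Rarb (2.85), the growth hormone receptor Ghr (2.23), the glucocorticoid receptor Nr3c1 (2.15) and Thra (1.21) were higher.

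Secretory genes were luminal with large differences among pools. Of 19 milk protein and secretory differentiation genes 10 were lower and 2 higher in stroma. Elf5, a regulator of alveolar differentiation, had 9.15, 9.28 and 7.56 in stroma, against 11.19, 11.27, 11.76, 13.18 and 11.14 in ML (difference -2.64 ± 0.47). Wap, whey acidic protein, had 4.76, 4.88 and 5.80 on the stromal arrays, against 6.52, 5.44, 7.38, 12.59 and 7.96 on the ML arrays and was not called (-1.90 ± 0.75, adjusted p = 0.0665), although without ML array 2 it was (-2.56, adjusted p = 0.0315), as it was in the paired arrays of pools 1 to 3 with the pool as a fixed block (-1.21, adjusted p = 0.00937). Both were highest on ML array 4, as was Krt14. Xdh, xanthine oxidoreductase of the milk fat globule, was higher in stroma by 3.33 ± 0.37 and Aldh1a3 by 2.31 ± 0.28. Channels and carriers of epithelia fell in 18 of 28 cases and rose in 3. The water channel Aqp5 had 8.04, 8.01 and 6.64 in stroma, against 12.86, 12.69, 12.99, 12.18 and 12.85 in ML (difference -5.03 ± 0.37). The sodium channel subunit Scnn1a had 4.95, 4.88 and 5.02 on the stromal arrays, against 10.39, 9.60, 9.75, 9.41 and 10.19 on the ML arrays. It was at least 26.6-fold lower in stroma, with no stromal array above background (adjusted p = 2.93e-12). The bicarbonate transporter Slc4a4 was stromal, with 11.63, 11.42 and 11.20 in stroma, against 4.94, 4.93, 5.15, 6.26 and 5.05 in ML (difference 6.40 ± 0.23).

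Proliferation genes were lower in stroma and depended on the pool. Of 32 genes of mitosis and DNA replication 28 were lower and 1 was higher (median -2.35). Cdk1, the mitotic kinase, had 5.81, 8.14 and 7.15 on the stromal arrays, against 8.57, 10.92, 11.57, 10.35 and 10.92 on the ML arrays (difference -3.32 ± 0.45). Top2a had 6.71, 8.12 and 7.03 in stroma, against 8.98, 10.97, 11.04, 9.78 and 10.58 in ML (difference -2.93 ± 0.38). Pool 1 was lowest in both groups for each gene, and within every pool the stromal array was below the ML array. Aurka (-3.27), Aurkb (-2.88), Bub1b (-2.85) and Cdc20 (-2.85) were lower too. Kif23, a kinesin of cytokinesis, was the one called higher by its brightest probe (3.61 ± 0.16), whereas 2 of its other probes were called lower, at -3.07 ± 0.37 and -2.56 ± 0.41. Of the immediate early genes, which respond to tissue dissociation, 9 of 24 were higher and 2 lower (45.8% called, against 38.3% of all genes). After cyclic loess 12 were higher and 2 lower, and the list median moved from 0.35 to 0.60. Myc rose by 2.72 ± 0.24, and Fos, Egr1 and Ier3 were not called (-0.32, -0.24 and -0.15).

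Energy metabolism was moderately lower in stroma. Of 39 nuclear genes of oxidative phosphorylation, 23 were lower and none higher, with a median of -0.76. Cox5a had 12.07, 12.33 and 12.38 on the stromal arrays, against 13.56, 13.83, 14.03, 13.49 and 13.75 on the ML arrays (difference -1.54 ± 0.11), and Cyc1 (-1.43), Atp5c1 (-1.13) and Ndufa4 (-1.04) were lower. After cyclic loess the median was -0.48 and 13 genes were called lower, so the size of this shift depended on the scaling. Glycolytic genes were lower in 12 of 19 cases and higher in 3, which became 8 lower and 3 higher after cyclic loess. Aldoc (-3.45), Pfkl (-2.35) and Pkm (-1.69) were lower, while Eno2, Slc2a3 and Pfkp rose by 2.26, 2.23 and 2.13. Ribosomal protein genes gave 5 falls and no rise of 27 (median -0.25). After cyclic loess they gave 2 falls and 1 rise, with a median of 0.03, so no direction is given for them. Lipid synthesis genes were mixed (9 lower, 2 higher of 27), with a called share of 40.7%, against 38.3% of all genes. Dgat2, which makes triglycerides, had 7.73, 6.81 and 6.95 in stroma, against 11.96, 10.80, 11.91, 10.75 and 11.71 in ML (difference -4.28 ± 0.24). Insig1 was higher by 2.48 ± 0.17, and Fasn was not called (0.13). Of 32 genes for folding and export in the endoplasmic reticulum 11 were higher and 1 was lower (37.5% called, against 38.3% of all genes). After cyclic loess 15 were higher and 1 was lower, and the median moved from 0.26 to 0.55. The rises were led by the coat gene Sec24d (2.96), by Creb3l1 (2.52) and by the coat gene Sec23a (2.07), and Creb3l4 was lower (-2.94).

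For 6276 genes (38.4%) the 95% interval of the difference lay wholly within a 1.5-fold change in either direction, and these can be called alike at this precision. Of them 2246 were above background on all 8 arrays, 1592 of these above 8 on the log2 scale, and 1132 were at or below background everywhere. Bright genes among the alike were those of tubulin (Tuba1b, 0.045, interval -0.14 to 0.23), the calcium-binding protein S100a11 (0.02, interval -0.20 to 0.24), the membrane protein Itm2b (0.08), the RNA-binding protein Zfp36l1 (-0.10) and the ribosomal proteins Rps4x, Rpl35, Rps9, Rpl31, Rps24 and Rps7 (-0.25 to 0.22). They were chosen as the brightest and averaged 14.82 to 14.99 over the 8 arrays, close to the highest value of 15.09, where differences may be compressed. These are readings of the brightest probe, and with the mean of all probes of a gene Zfp36l1 was called higher (0.66) and Rps24 lower (-0.69). The remaining 3800 genes (23.3%) were neither called nor shown to be alike.

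Probes of 1 gene did not always move together. Of 2290 genes with at least 2 called probes, 43 (1.88%) had probes called in opposite directions. Gsn, gelsolin, had 14.89, 14.51 and 14.22 in stroma, against 7.91, 7.81, 7.24, 6.97 and 7.63 in ML on its brightest probe (difference 6.93 ± 0.26). Another Gsn probe had 8.45, 8.56 and 8.28 in stroma, against 9.41, 9.44, 9.81, 7.34 and 9.86 in ML (difference -0.96 ± 0.31). Cd44, the hyaluronan receptor, had 4 probes called higher, by 1.43 to 1.79, and 2 called lower (-1.50 and -1.49). B3gnt9, Acp2, Lgals9 and Ctsa were further examples of such genes. The files do not give probe positions, so which transcripts these probes read is not described here.

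The genes of CD29 and CD61 differed less than Cd24a at the RNA level. Itgb1, which encodes CD29, was called higher in stroma although both gates are CD29lo. It had 9.04, 8.92 and 8.43 on the stromal arrays, against 8.64, 8.33, 7.94, 7.73 and 7.73 on the ML arrays (difference 0.65 ± 0.18, adjusted p = 0.0087), and the arrays overlapped. Without stromal array 1 or 2, within the first batch or with the pool as a fixed block, it was not called (0.51 to 0.57). Itgb3, which encodes CD61, had 6.31, 6.90 and 6.35 in stroma, against 5.33, 5.84, 5.41, 5.17 and 5.84 in ML (difference 1.03 ± 0.15, adjusted p = 2.21e-05). Both groups were within 2 log2 units of background for it, and stroma was the higher. Itga6, the alpha 6 integrin (CD49f) that receives laminin, was not a marker of this sort. It had 7.85, 8.16 and 6.51 on the stromal arrays, against 9.66, 9.61, 9.58, 9.36 and 8.90 on the ML arrays (difference -1.85 ± 0.25), with no overlap.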

How the data were processed

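RNA of sorted mouse mammary cells was hybridized to Illumina MouseWG-6 v2 BeadChips, 1 array per sample. The deposited log2 values were made by the authors from BeadStudio probe summaries with neqc in limma, which corrects background and then brings the arrays to 1 distribution, using the control probes (versions are not given in the sources used here). Raw intensity and detection columns (18 each) could not be tied to samples and were not used.

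Values were fitted with limma 3.58.1 in R 4.3.3: the 18 arrays gave 1 mean per subpopulation, arrays were weighted by quality, and pools entered as random blocks. Because of the weights and the block, a fitted difference can depart from the difference of plain means. P-values were adjusted by the Benjamini-Hochberg method over the 6 pairwise contrasts together, and intervals cover 95%. Background on an array was the 99th percentile of a normal curve fitted to the median and spread of 1504 olfactory and vomeronasal receptor probes, of which 662 still passed the filter. Of 45281 probes, 34885 had 1 gene symbol, 18 several and 10378 none listed, and only those with 1 symbol name a gene. Where no array of a group exceeded background, "at least N-fold" sets the bright group's mean against the mean background level of the dim group's arrays. List medians are also given with such genes at that bound where this moved them. P-values rest on the spread between arrays of a subpopulation, shared over all subpopulations and moderated across probes. They do not rest on the paired differences of the shared pools alone.

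The pool numbers pair the samples: within pools 1, 2 and 3, deviations of the stromal and ML arrays from their group means correlated at 0.22, 0.18 and 0.19. Over pairs of arrays of different subpopulations, the median was 0.41 within a pool, 0.03 between pools of 1 batch and -0.20 between batches. The stromal and ML pairs thus lay below the median pair within a pool. In simulated data with 10000 probes, the fit recovered 69% of 200 probes changed by 1 on the log2 scale and 96% of 200 changed by 2, with 6 false calls among 9600. There few probes changed, and in stroma alone, whereas 33.1% of probes were called in the real contrast. These rates therefore do not carry over to it. Members and gene lists were chosen with earlier results of these data known. The genes named were the 15 largest rises and falls with groups apart, the sort markers, up to 6 called members per direction of each list with its defining members that were not called, pairs called in both genes, up to 6 genes with opposing probes and the 10 brightest alike genes. Other genes, among them the Zeb, Snail, Gata3 and catenin genes, were named after their values were seen. Sequences are from RefSeq (GRCm38.p6), matched by symbol.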

Additional observations from a re-analysis of the deposited data

Results flagged for a closer look

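In 25 of the 343 genes named here, the highest or lowest of the 5 ML arrays stood apart from the other 4 by at least 0.71 of the range of the group. Chance alone flags about 1 in 20 groups, the groups of 3 stromal arrays were not tested, and over all genes the share was 7.24%. ML array 4 was the far array, above the rest, in 14 of the 25. Over all 16324 genes tested, 1 array stood far above the rest in 827, on ML array 4 in 341 of these and on ML array 5 in 260.

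Genes called higher in stroma were among those with a high value on ML array 4: Thy1 (8.32), Tgfbr3 (9.44), Xdh (11.74), Cpxm1 (6.97), Creb3l1 (6.69), Igfbp2 (6.70) and Slc4a4 (6.26). Krt14 (13.76), Scx (7.20), Fasn (6.96), Aldoc (12.69), Sox10 (12.68), Rgs5 (9.01) and Tnfrsf11a (9.08) were also high on that array, whereas Cited1 (11.52) and Cldn6 (10.87) were low. The 2 mitotic genes Bub1b (7.90) and Cdc20 (9.62) were low on ML array 1. On ML array 5, Gli2 (7.29), Ocln (9.18), Prox1 (7.83) and S100b (4.89, below background) were high and Rps24 (14.72) and Egr2 (10.60) were low, and Myh4 was high on ML array 3 (6.998).

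ML array 4 is also the array on which 263 of the 429 genes over 16-fold higher in stroma had their highest ML value, and it holds high values of skeletal muscle genes and of Wap. ML array 5, of the same second batch, did not share this: its median for those stromal genes was 5.74, against 6.54 on ML array 4, and its Wap level was 7.96, against 12.59.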

How the results depend on the processing

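No gene called in either direction turned to the opposite call in any of 25 alternatives. The largest losses came with a test against the 1.5-fold change itself (treat in limma), which called 6772 probes and 3811 genes and left 10 genes with opposing probes. Without array weights 5526 genes and 10044 probes were called, 794 of the gene calls were lost and 25 genes had opposing probes. Among the genes named, Acta2, Angpt1, Cxcl12, Cxcr4, Eng, Fgfr1, Itgb1 and Krt23 then lost their calls, and Hes1 gained one. With the filter set at the 99th percentile of the receptor probes, 3158 genes were alike, since fewer genes were tested. Cyclic loess called 3251 genes higher and 2685 lower, with 5379 calls shared with the fit reported. The distance between stromal and ML arrays was 7.09 over the 100 largest differences and 4.36 over the 2000 largest. Leaving out 1 array in turn gave 11031 to 11832 called probes, 5934 to 6256 called genes, 5009 to 6190 alike genes, 33 to 48 genes with opposing probes and 666 to 691 called list members. With the mean of all probes of a gene, 4 of the genes named turned sign: Kif23 (-0.58), Acp2 (0.37), B3gnt9 (2.125) and Zfp36l1 (0.66). With any listed promoter counted, an alternative chosen after seeing the data, the E-box share was 16.01% for genes over 16-fold higher and 22.2% over all genes.

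Without the replicate block 6014 genes and 11143 probes were called, 5953 of the genes the same way as with it. With the pool as a fixed block 6266 genes were called, and with only the paired arrays of pools 1 to 3, 6308. Among the genes named, Acta2 and Myh4 lost their calls without the block, Acta2 and Itgb1 with the fixed block, and Itgb1, Lamb3 and Myh4 in the paired arrays, where Adipoq, Cdh5, Notch1, Rgs5 and Wap gained one. Renormalization from raw intensities was not run. The cause of the changes other than those of the stricter tests was not tested. Depth has no meaning for arrays, and the number of arrays and the background set the limit: 253 rises and 255 falls are known only as bounds.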
